A study of Rattus norvegicus with 59 samples.

Results

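The 9 liver genes for enzymes that break down amino acids were followed after acute exposure of rats to cadmium (Cd) or chromium (Cr). The genes are Tat, Hpd, Hgd, Fah, Tdo2, Sds, Gpt, Got1 and Hykk. They were found by their symbol in the annotation of the array. Each symbol had exactly 1 probe set, which gives 9 probe sets of the 31042 on the array that are not controls, and 9 genes of the 14217 with a symbol of their own. All 9 passed the signal filter for both metals. The animals were male Sprague-Dawley rats given an intraperitoneal injection of CdCl2, of Na2Cr2O7 or of sterile saline vehicle, and whole liver was taken 1, 3 or 7 days later. The exposed groups are the Cd dose of 1.25 mg/kg, with 4 livers on day 1 and 5 each on days 3 and 7, and the Cr dose labelled 20 mg/kg, with 5 livers on each day. The methods of the study name a lower Cr dose in 1 place. Each metal had its own vehicle controls, with 5 livers on each day, so that 59 livers in 12 groups were measured, 1 array each. On day 1 the study left out 1 further Cd liver, whose expression grouped with the controls in a principal component analysis. That liver was then also found not to have taken up Cd.

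The liver is where most amino acids from the diet and from muscle are taken apart. Aminotransferases first move the amino group to a keto acid, and the carbon skeleton is then oxidised or turned into glucose. Tyrosine is broken down in a fixed order by Tat (tyrosine aminotransferase), Hpd (hydroxyphenylpyruvate dioxygenase), Hgd (homogentisate dioxygenase) and Fah (fumarylacetoacetate hydrolase), and the inherited loss of the later enzymes causes tyrosinaemia or alkaptonuria. Tdo2 (tryptophan dioxygenase) opens the indole ring of tryptophan and starts the kynurenine pathway. Sds (serine dehydratase) turns serine into pyruvate, and Hykk is the kinase that starts the breakdown of hydroxylysine. Gpt and Got1 are the cytosolic alanine and aspartate aminotransferases, which are also the enzymes whose release into blood is measured as a sign of liver injury. Tat, Tdo2 and Sds are classical targets of glucocorticoids.

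The sequence before the transcription start was available for 6 of the 9 genes (Tat, Hpd, Hgd, Fah, Tdo2 and Got1). The entries are those of RefSeq on the rat build GRCr8, matched by gene ID. The 250 bases before the start are shown for the 3 tyrosine enzymes that were lower on day 1 after both metals, and for Tdo2, which was higher after Cr. They are written 5′ to 3′ along the gene, and capitals mark a match to a searched motif.
Hpd, chr12:39041996-39042245, plus strand: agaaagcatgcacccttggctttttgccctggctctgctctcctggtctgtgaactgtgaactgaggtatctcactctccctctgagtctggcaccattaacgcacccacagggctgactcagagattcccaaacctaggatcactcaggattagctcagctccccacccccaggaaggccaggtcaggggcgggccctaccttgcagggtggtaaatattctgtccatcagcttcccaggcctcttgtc
Hgd, chr11:76643768-76644017, minus strand: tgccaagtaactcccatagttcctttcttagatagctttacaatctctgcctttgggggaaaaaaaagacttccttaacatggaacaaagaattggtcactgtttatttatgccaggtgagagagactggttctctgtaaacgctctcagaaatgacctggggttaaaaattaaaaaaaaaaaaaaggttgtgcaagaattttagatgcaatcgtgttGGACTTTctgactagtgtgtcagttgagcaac
Fah, chr1:147980606-147980855, minus strand: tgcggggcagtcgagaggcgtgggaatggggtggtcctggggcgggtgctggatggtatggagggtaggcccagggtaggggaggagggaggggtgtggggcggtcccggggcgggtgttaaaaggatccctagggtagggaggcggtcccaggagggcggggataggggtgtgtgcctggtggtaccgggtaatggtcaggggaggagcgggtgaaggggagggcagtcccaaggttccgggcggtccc
Tdo2, chr2:169585587-169585836, minus strand: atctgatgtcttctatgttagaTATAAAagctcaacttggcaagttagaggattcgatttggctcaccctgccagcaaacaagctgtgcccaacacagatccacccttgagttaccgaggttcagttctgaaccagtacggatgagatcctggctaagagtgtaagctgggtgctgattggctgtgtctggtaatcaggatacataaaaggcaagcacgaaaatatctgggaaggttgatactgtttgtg
Each motif was searched on both strands of all 250 bases. AAAGTCC, part of the site bound by HNF4, matched in Hgd only, on the reverse strand from 32 bases before the start, and 3.99% of the 33469 promoters in the table hold it. TATAAA, the TATA box, matched in Tdo2 only, from 228 bases before the start, and 12.9% of all promoters hold it. The core of the glucocorticoid receptor site, AGAACA, matched in 0 of the 6, against 17.5% of all promoters. The core of the cAMP response element, TGACG, also matched in 0 of the 6, against 18.2%. No matches overlapped, and these counts describe the letters of this window only.

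All values below are log2 signals after robust multi-array averaging (RMA), on which a difference of 1 is a factor of 2. The signal of a probe set is compared only with itself in other livers. A gene was called lower or higher where limma gave an adjusted p of 0.05 or less over the 15521 brighter probe sets. The labels name separate biological replicates, and correlations between arrays of a group were 0.9824 or more. Metallothionein Mt2A, the metal-binding protein used as a check of exposure, was higher on day 1 by 4.43 after Cd and by 2.02 after Cr. The summed linear signal of 9 hepatocyte markers on day 1 was 140000 to 148000 after Cd against 145000 to 152000 in controls, and 143000 to 151000 after Cr against 146000 to 149000.

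**Figure D1:**
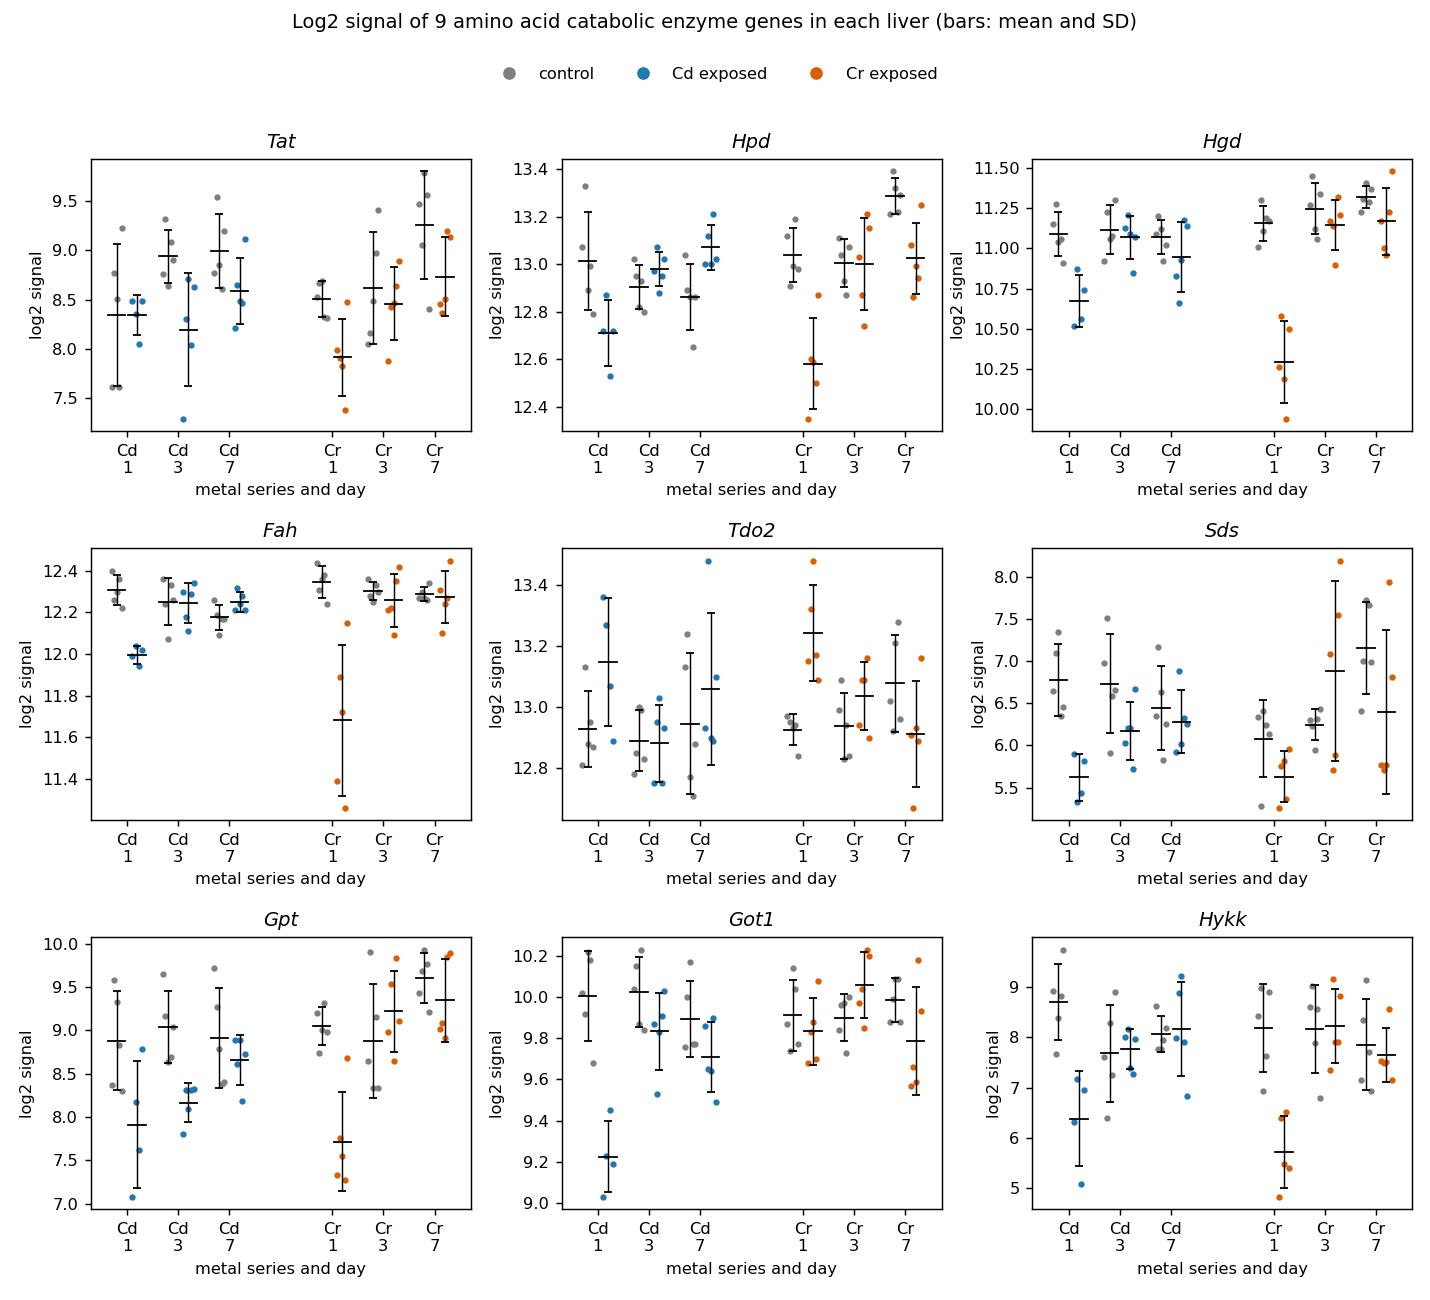
Log2 RMA signal (vertical axis) of each of the 9 genes in every liver, by metal series and day (horizontal axis). Grey points are vehicle controls, blue points Cd livers and orange points Cr livers, and black bars give the mean and SD of 4 or 5 livers. The day 1 groups stand apart for Hgd, Fah and Hykk after both metals, for Sds and Got1 after Cd alone, and for Hpd, Gpt and Tdo2 after Cr alone. For Got1 after Cd the mean was 9.23 against 10.01.

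On day 1 after Cd, 7 of the 9 enzymes were lower than in same-day controls and 0 were higher. The 7 were Hpd, Hgd, Fah, Sds, Gpt, Got1 and Hykk, with changes from -0.31 to -2.32. Tat, at -0.01, and Tdo2, at 0.22, were not called. Over all probe sets tested, 10.5% were lower and 12.9% were higher. Sds, Gpt and Hykk also passed the study's 1.8-fold criterion, which 1.93% of probe sets passed in that direction. In 5 genes every Cd liver lay below every control, as did 8.07% of probe sets. The median change of the 9 was -0.42, against 0.01 over all probe sets.

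On day 1 after Cr, 5 of the 9 enzymes were lower and 1 was higher, where 17.8% of all probe sets tested were lower and 27.9% higher. Hpd, Hgd, Fah, Gpt and Hykk were lower, with changes from -0.46 to -2.45, and Tdo2 was higher by 0.32. Tat (-0.59), Sds (-0.45) and Got1 (-0.08) were not called. Hgd, Gpt and Hykk also passed the 1.8-fold criterion, which 2.22% of probe sets passed as lower. All Cr livers lay below all controls in 5 genes, against 7.97% of probe sets, and above them in 1 gene, against 12.7%. The median change of the 9 was -0.59, against 0.04 over all probe sets.

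Along the tyrosine pathway, Tat, the entry step, spread widely in the livers of the Cd series on day 1. The controls read 7.61, 7.61, 8.51, 8.77 and 9.23 and the Cd livers 8.05, 8.35, 8.48 and 8.48, so the exposed group lay inside the range of its controls. In the Cr series the controls were closer together, at 8.31, 8.32, 8.53, 8.67 and 8.69, and the Cr livers read 7.38, 7.82, 7.91, 7.99 and 8.47. Of the Cr livers, 4 lay under the lowest control and 1 lay among the controls. The change of -0.59 (SE 0.26, n = 5 and 5) did not pass (adjusted p = 0.0621). It did pass without the highest Cr liver, replicate 5 (-0.73, adjusted p = 0.0242), and when all 3 days' controls were pooled (-0.87, adjusted p = 0.000835). Over 12 alternatives other than leaving out livers its adjusted p was 0.000835 to 0.0877.

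Hpd, the second enzyme, was lower after both metals, with changes of -0.31 after Cd and -0.46 after Cr. The Cd livers read 12.53, 12.72, 12.72 and 12.87 against controls of 12.79, 12.89, 12.99, 13.07 and 13.33, with 1 Cd liver inside the control range (SE 0.09, adjusted p = 0.0123). That call was lost without Cd replicate 4 (-0.25, adjusted p = 0.0697) and when only the 9 arrays of the comparison were fitted (adjusted p = 0.093, the highest of 12 alternatives, the lowest being 0.00366). The Cr livers read 12.35, 12.50, 12.59, 12.60 and 12.87 and the controls 12.91, 12.98, 12.99, 13.12 and 13.19. These groups did not overlap (SE 0.09, adjusted p = 0.00019).

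Hgd, which opens the ring of homogentisate, separated fully on day 1 in both series. The Cd livers read 10.52, 10.56, 10.74 and 10.87, and their controls 10.91, 11.04, 11.06, 11.15 and 11.28, a change of -0.42 (SE 0.10, adjusted p = 0.00363). The Cr livers read 9.94, 10.19, 10.26, 10.50 and 10.58, and their controls 11.01, 11.11, 11.17, 11.19 and 11.30. The gap between the groups was wider after Cr, and the change was -0.86 (SE 0.11, adjusted p = 4.2e-07), which is 1.82-fold lower.

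Fah, the last enzyme of tyrosine breakdown, also showed no overlap on day 1. The 4 Cd livers lay close together at 11.94, 11.99, 12.02 and 12.04, against controls at 12.22, 12.26, 12.30, 12.36 and 12.40, a change of -0.31 (SE 0.06, adjusted p = 0.000353). The Cr livers were spread over a wider range, at 11.26, 11.39, 11.72, 11.89 and 12.15, with an SD of 0.36 against 0.04 in the Cd livers. Their controls read 12.24, 12.31, 12.36, 12.38 and 12.44, and the change was -0.66 (SE 0.11, adjusted p = 1.39e-05).

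Tdo2, the entry enzyme of tryptophan breakdown, was called higher on day 1 after Cr, the only rise among the 9 genes on that day. The Cr livers read 13.09, 13.15, 13.17, 13.32 and 13.48 against controls of 12.84, 12.93, 12.94, 12.95 and 12.97. Every Cr liver was above every control, and the change of 0.32 is 1.25-fold (SE 0.09, adjusted p = 0.00342). The Cd livers read 12.89, 13.07, 13.27 and 13.36 and overlapped their controls, at 12.81, 12.87, 12.88, 12.95 and 13.13. The Cd change of 0.22 was not called (SE 0.12, adjusted p = 0.195). Nor was the difference between the metals, at -0.10 (95% interval -0.39 to 0.19).

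Sds, which deaminates serine, was lower on day 1 after Cd. Its values after Cd were 5.33, 5.44, 5.81 and 5.90, all below the controls at 6.35, 6.46, 6.64, 7.09 and 7.34, and the change of -1.16 is 2.23-fold (SE 0.27, adjusted p = 0.00263). The median signal of an array was 5.38 to 5.46, close to these Cd values. The Cr livers were at similar values, 5.26, 5.36, 5.75, 5.81 and 5.96, but 1 of their controls was as low, at 5.28, beside 6.13, 6.24, 6.33 and 6.41. The Cr change of -0.45 was not called (SE 0.40, adjusted p = 0.37). Without that control, replicate 2, it was -0.65 (adjusted p = 0.213), and against the pooled controls of 3 days it was -0.86 and passed (adjusted p = 0.0257, the lowest of 12 alternatives, the highest being 0.437).

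Gpt, the alanine aminotransferase, was lower on day 1 after both metals. The Cr livers read 7.27, 7.33, 7.55, 7.76 and 8.68, all below controls of 8.74, 8.98, 9.0, 9.20 and 9.31, a change of -1.33 or 2.51-fold (SE 0.28, adjusted p = 0.000344). The Cd livers read 7.08, 7.62, 8.17 and 8.78 and their controls 8.30, 8.37, 8.83, 9.33 and 9.58. Of these, 1 Cd liver lay within the control range, and the change was -0.97 (SE 0.31, adjusted p = 0.0217). This Cd call was lost on leaving out control replicate 2 (-0.79, adjusted p = 0.0687), control replicate 3 (-0.86, adjusted p = 0.0564), Cd replicate 1 (-0.69, adjusted p = 0.131) or Cd replicate 4 (-0.87, adjusted p = 0.074). It was also lost with only the arrays of the comparison (adjusted p = 0.0876, the highest of 12 alternatives, the lowest being 0.00295).

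Got1, the aspartate aminotransferase, was lower on day 1 after Cd. Livers with Cd read 9.03, 9.19, 9.23 and 9.45, and controls 9.68, 9.92, 10.02, 10.18 and 10.22. The groups did not overlap, and the change of -0.78 is 1.72-fold (SE 0.12, adjusted p = 2.51e-05). The Cr livers, at 9.68, 9.70, 9.83, 9.88 and 10.08, lay largely within their controls, at 9.74, 9.77, 9.87, 10.04 and 10.14. That change was -0.08, with a 95% interval of -0.30 to 0.14 (adjusted p = 0.562).

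Hykk, the hydroxylysine kinase, had the largest change of the 9 after both metals. With Cd the livers read 5.08, 6.32, 6.95 and 7.18 and the controls 7.67, 8.38, 8.81, 8.91 and 9.74, a change of -2.32 or 5-fold (SE 0.48, adjusted p = 0.000673). With Cr they read 4.83, 5.40, 5.48, 6.40 and 6.51 and the controls 6.94, 7.63, 8.43, 8.90 and 8.98, a change of -2.45 or 5.47-fold (SE 0.46, adjusted p = 0.000101). All exposed livers of both metals lay below all of their controls. The lowest of these exposed values were under the median signals of the arrays, at 5.38 to 5.46. Over 12 alternatives other than leaving out livers the change was -2.34 to -1.77 after Cd and -2.48 to -2.34 after Cr. Hykk also had the widest spread of the 9 in the controls, with an SD of 0.76 for Cd and 0.88 for Cr on day 1.

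The livers of a group did not rank alike for all members. Among the Cr livers of day 1, replicate 5 was the highest for 6 of the 9 genes (Tat, Hpd, Fah, Sds, Gpt and Got1) and the lowest for 1, Tdo2. Replicates 1 and 4 were each the lowest for 4 genes. Among the Cd livers of day 1, replicate 4 was the lowest for 4 genes (Tat, Hpd, Fah and Hykk), and replicate 2 the highest for 4.

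In whole liver, fewer cells of a type and less RNA per cell cannot be told apart. On day 1 after Cd, markers of Kupffer cells and macrophages were lower for 8 of 8 genes, among them Clec4f (-3.75) and Cd163 (-3.79). Their summed linear signal was 317 to 1630 against 3280 to 4350 in controls. After Cr it was 3640 to 5080 against 3490 to 4170, with 0 of 8 lower and 1 higher. The summed signal of 3 neutrophil markers on day 1 was 704 to 2410 after Cd against 66.4 to 151, and 121 to 416 after Cr against 57 to 127. Of the 9 hepatocyte markers, Ttr (-0.18), Cps1 (-0.31) and Cyp2e1 (-0.54) were lower and Fga (0.25) higher after Cd, and after Cr Cps1 (-0.32) and Cyp2e1 (-0.57) were lower and Apoa1 (0.24) and Fga (0.28) higher. No marker is at 0 on this scale. The part of these cell markers in the changes of the 9 genes was not tested.

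**Figure D2:**
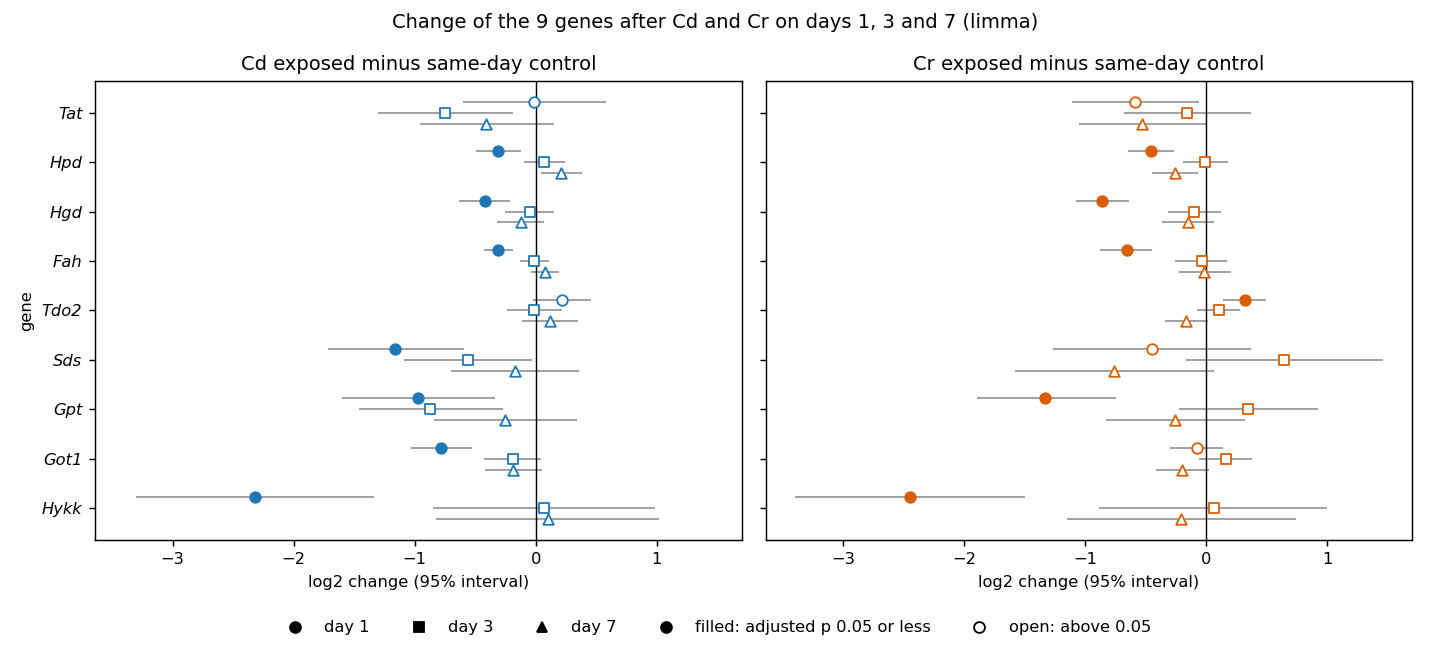
Log2 change of each gene (exposed minus same-day control, horizontal axis) with its 95% interval, for Cd (left) and Cr (right). Circles are day 1, squares day 3 and triangles day 7, and filled symbols passed at an adjusted p of 0.05 or less. All filled symbols are day 1, from -2.45 for Hykk to 0.32 for Tdo2 after Cr.

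Whether the metals differed was tested as the Cd change minus the Cr change. The Cd livers had the study's medium dose and the Cr livers, by their label, its high dose, in separate series. Metal, dose level and series therefore cannot be told apart in this test. On day 1, 3 of the 9 members passed, where 24.8% of all probe sets did. Got1 was lower after Cd than after Cr relative to its controls, with -0.78 against -0.08 (difference -0.70, 95% interval -1.03 to -0.37, adjusted p = 0.00126), a call kept without any 1 of the 19 livers. Hgd and Fah were lowered less by Cd than by Cr. The difference was 0.44 for Hgd (95% interval 0.15 to 0.74, adjusted p = 0.0228) and 0.35 for Fah (95% interval 0.10 to 0.60, adjusted p = 0.0312).

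The other 6 genes did not pass on day 1, and their intervals set how far the metals could differ. For Hykk the difference was 0.13 (95% interval -1.25 to 1.51), for Gpt 0.36 (-0.50 to 1.22) and for Sds -0.71 (-1.72 to 0.31). For Tat it was 0.58 (-0.21 to 1.37) and for Hpd 0.15 (-0.10 to 0.41). With pooled controls the Hpd difference was 0.31 and passed (adjusted p = 0.018). Sds, called after Cd and not after Cr, and Tdo2, called after Cr and not after Cd, were thus not shown to differ between metals. The Hgd difference was lost without Cd exposed replicate 2 (0.38, adjusted p = 0.0705) or Cr exposed replicate 4 (0.36, adjusted p = 0.0768). The Fah difference was lost without Cd control replicate 5 (0.33, adjusted p = 0.0522), Cd exposed replicate 2 (0.34, adjusted p = 0.0576), Cr control replicate 1 (0.33, adjusted p = 0.056), Cr exposed replicate 1 (0.28, adjusted p = 0.101) or Cr exposed replicate 4 (0.25, adjusted p = 0.119).

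**Figure D3:**
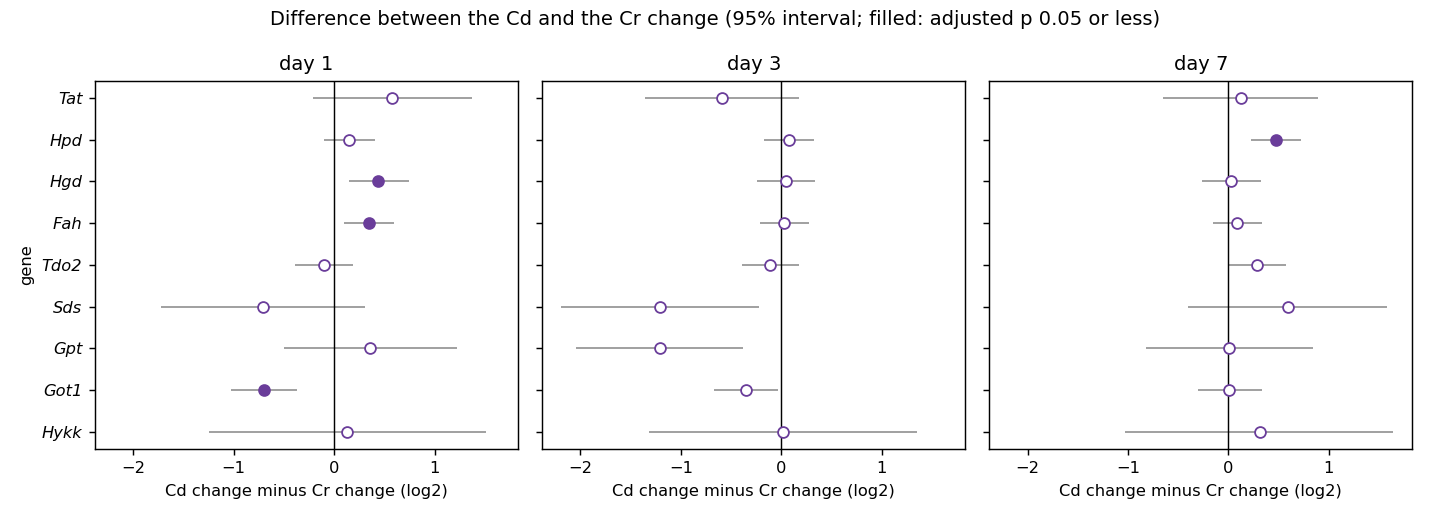
Cd change minus Cr change (log2, horizontal axis) of each gene on days 1, 3 and 7, with 95% intervals from the fit over all 59 arrays. Filled points passed at an adjusted p of 0.05 or less: Hgd (0.44), Fah (0.35) and Got1 (-0.70) on day 1, and Hpd (0.47) on day 7.

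On day 3, 0 of the 9 genes were called after either metal. Over all probe sets limma called 1.35% after Cd and 0% after Cr. At an unadjusted p of 0.05 or less there were 3 genes after Cd (Tat, Sds and Gpt), where 12% of probe sets were, and 0 after Cr, where 8.45% were. Under each of the 12 alternatives with all livers kept, 0 were called for either metal. Gpt was at -0.87 on day 3 after Cd (95% interval -1.46 to -0.27, adjusted p = 0.157). Its Cd livers read 7.81, 8.09, 8.31, 8.31 and 8.32 and the controls 8.63, 8.69, 9.04, 9.17 and 9.65. These groups did not overlap, the only such case among the 9 genes on that day, where 0.986% of probe sets had all Cd livers below all controls. Tat was at -0.75 (95% interval -1.30 to -0.19, adjusted p = 0.207), with Cd livers at 7.29, 8.04, 8.30, 8.63 and 8.71 and controls at 8.64, 8.76, 8.90, 9.08 and 9.32, and 1 Cd liver inside the control range. Sds was at -0.56 (adjusted p = 0.378).

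Hykk overlapped its controls on day 3 after both metals. After Cd the livers read 7.28, 7.39, 7.96, 8.01 and 8.16 and the controls 6.39, 7.25, 7.61, 8.28 and 8.90, and after Cr 7.36, 7.90, 7.90, 8.81 and 9.16 against 6.79, 7.88, 8.56, 8.60 and 9.01. The differences were 0.07 (95% interval -0.85 to 0.99) and 0.06 (-0.89 to 1.00). Hpd, Hgd, Fah and Tdo2 lay between -0.10 and 0.10 on day 3 for both metals, and their 95% intervals reached at most 0.32 in size. Sds was scattered among the Cr livers of day 3, at 5.71, 5.89, 7.08, 7.55 and 8.19 against controls of 5.94, 6.23, 6.30, 6.31 and 6.43. Of these Cr livers 2 lay below all controls and 3 above all, and the difference of 0.64 was not called (SE 0.40, adjusted p = 0.725).

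On day 7, 0 of the 9 genes were called after either metal, where limma called 0.0258% of probe sets after Cd and 0.232% after Cr. At an unadjusted p of 0.05 or less there was 1 gene after Cd, against 8.21% of probe sets, and there were 2 after Cr, against 10.8%. These were Hpd at 0.21 after Cd (adjusted p = 0.556), and Tat at -0.53 (adjusted p = 0.456) and Hpd at -0.26 (adjusted p = 0.249) after Cr. The 12 alternatives also gave 0. After Cr the differences lay from -0.02 to -0.76, with none called, and their signs were not all stable. Against pooled controls Gpt was at 0.17, while Sds (-0.10) and Tat (-0.06) kept their sign and were smaller in size. Fah was at 0.03 without Cr replicate 2 and Hykk at 0.12 without control replicate 3. The Hpd values were 13.00, 13.00, 13.02, 13.12 and 13.21 after Cd against 12.65, 12.86, 12.86, 12.89 and 13.04. After Cr they were 12.86, 12.94, 12.99, 13.08 and 13.25 against 13.21, 13.22, 13.29, 13.32 and 13.39. Both pairs of groups overlapped.

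The Cd change minus the Cr change of Hpd on day 7 was 0.47 (95% interval 0.22 to 0.72, adjusted p = 0.0496), where 0.722% of probe sets passed. The exposed means were close, at 13.07 after Cd and 13.02 after Cr, while the control means were 12.86 and 13.29. The difference thus lay mostly between the 2 control groups. With pooled controls the difference was 0.23 and did not pass (adjusted p = 0.355). Among the fits that left out 1 liver, the call held only without Cd control replicate 1, Cd exposed replicate 5 or Cr exposed replicate 5, and was lost without any 1 of the other 17 livers, with differences from 0.42 to 0.49 among those. On day 3 the metals differed at 0 of the 9 genes, against 0.058% of probe sets. Gpt (-1.21, adjusted p = 0.327), Sds (-1.21, adjusted p = 0.486) and Got1 (-0.35, adjusted p = 0.556) had an unadjusted p of 0.05 or less. The other 8 genes of day 7 had differences from 0.01 to 0.59 and were not called.

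The change of each gene on day 1 was also set against its change on the later days, each relative to its own controls. After Cd, Hpd, Fah, Got1 and Hykk had a higher value on day 3 than on day 1, as did 5.79% of probe sets, and the same 4 on day 7, against 4.61%. All lay nearer to the controls on the later days than on day 1. The change of Hpd on day 7 was 0.21 and was not called (adjusted p = 0.556). For Hykk the differences were 2.39 (SE 0.65, adjusted p = 0.0164) and 2.42 (SE 0.65, adjusted p = 0.0161). Between days 1 and 3 the Hykk mean of the Cd livers rose from 6.38 to 7.76, while that of the controls fell from 8.7 to 7.69. Over 9 alternatives that kept all livers the Hykk difference was 1.38 to 2.39 for day 3 and 1.78 to 2.52 for day 7. In the alternative with pooled controls the controls cancel, which leaves a comparison of exposed livers alone. For Got1 both were 0.59 (SE 0.17, adjusted p = 0.0202 and 0.02), and for Fah they were 0.30 and 0.39 (SE 0.08). Hpd differed by 0.38 (adjusted p = 0.0426) and 0.52 (adjusted p = 0.00584). Gpt, at 0.10 between days 3 and 1 (95% interval -0.76 to 0.97), and Sds, at 0.59 (-0.18 to 1.36), were not called.

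Several of these Cd calls were lost when 1 liver was left out. Hykk was lost without Cd exposed day 1 replicate 4, at 1.96 for day 3 (adjusted p = 0.0569) and 1.99 for day 7 (adjusted p = 0.0541). Got1 was lost without Cd exposed day 1 replicate 1, at 0.52 (adjusted p = 0.0558) and 0.53 (adjusted p = 0.0545). With either of these livers left out, 2 of the 9 genes passed between days 3 and 1. The Hpd call between days 3 and 1 was lost without any 1 of 14 of the 19 livers, and stayed without day 1 controls 3 or 5, Cd exposed day 1 replicate 2, day 3 control 1 or Cd exposed day 3 replicate 3. Sds between days 7 and 1 passed without day 7 control replicate 2 (1.17, adjusted p = 0.0405).

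After Cr, 5 genes were higher on day 3 than on day 1 in this sense, where 9.86% of probe sets were. Between days 7 and 1, 4 were higher, against 10.4%, and 1 was lower, against 14.1%. Hykk moved by 2.51 and 2.25, Gpt by 1.67 and 1.07, Hgd by 0.76 and 0.71, and Fah by 0.62 and 0.65, all towards the controls. Gpt went past them, to 0.34 on day 3. Hpd moved by 0.45 on day 3 (adjusted p = 0.0114) and was not called on day 7 (0.20, adjusted p = 0.28). With the controls of 3 days pooled, the controls cancel from a difference between days. This leaves the Cr livers of day 7 minus those of day 1. In that form Hpd was at 0.44 and passed (adjusted p = 0.000281), and Tat went from 0.06 to 0.81 and passed (adjusted p = 0.0113). The Tat controls of day 7 lay 0.75 above those of day 1 (not called), which is not subtracted there. Tdo2 moved the other way, by -0.49 on day 7 (SE 0.12, adjusted p = 0.00494), from 0.32 above controls on day 1 to -0.17 on day 7. The calls of day 3 were kept without any 1 of the 20 livers. The Gpt call of day 7 (adjusted p = 0.0476) was lost without any 1 of 14 of the 20 livers, with values from 0.94 to 1.12 there, and stayed without control replicate 2 or Cr replicate 5 of day 1, control replicate 3 of day 7, or Cr replicates 1, 2 or 3 of day 7.

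The controls were also compared between days. For either metal 0 of the 9 genes were called. Over all probe sets limma called 0.696% and 0.348% for days 3 and 7 against day 1 in the Cd series, and 0% and 1.13% in the Cr series. The Cr controls of day 7 minus those of day 1 were 1.08 for Sds, 0.75 for Tat and 0.25 for Hpd, each with an unadjusted p of 0.05 or less (adjusted p = 0.275, 0.214 and 0.276). In the Cd series Tat was at 0.59 and Hykk at -1.02 between the day 3 and day 1 controls, and Tat at 0.65 and Fah at -0.13 between days 7 and 1 (adjusted p = 0.489, 0.468, 0.483 and 0.507). These comparisons of controls were added after the data were seen.

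Over all 12 groups, the Cr livers of day 1 had the lowest mean for 6 of the 9 genes: Tat, Hpd, Hgd, Fah, Gpt and Hykk. The Cd livers of day 1 came next for Hpd, Hgd, Fah, Gpt and Hykk. For Hykk the means were 5.72 ± 0.71 (SD, n = 5) and 6.38 ± 0.94 (SD, n = 4), and the other 10 groups lay between 7.65 and 8.70. The Cr and Cd livers of day 1 overlapped each other, with ranges of 4.83 to 6.51 and 5.08 to 7.18. For Sds the Cd and Cr livers of day 1 were the lowest at 5.62 ± 0.28 and 5.63 ± 0.30, and for Got1 the Cd livers of day 1 were lowest at 9.23 ± 0.17, with the next group at 9.71 ± 0.17. Tdo2 ran opposite, with the Cr (13.24 ± 0.16) and Cd (13.15 ± 0.21) livers of day 1 at the top.

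Members varied together to different degrees across the 12 group means, and Pearson's r over these means is given as a description. Hgd and Fah had the closest course (r = 0.95), followed by Fah and Hykk (0.92). Got1 was less like Fah (0.41) and Tat (0.30), and Tdo2 ran against Fah (-0.79). Among 9384 other genes, the closest to Hgd was Mbl2 (0.992), the secreted mannose-binding lectin, followed by Lipc (0.987), hepatic lipase. The closest to Fah were Mylk and Pc (0.983 each), Pc being pyruvate carboxylase. Got1 was closest to Abcc2 (0.947), the canalicular exporter, Gpt to Mfsd3 (0.955), and Hykk to LOC100910558 (0.976) and Ppp1r3b (0.974), a glycogen-targeting subunit of protein phosphatase. Tdo2 was closest to Ccdc6 (0.930), Sds to Sebox (0.904), Hpd to Smpd3 (0.947) and Tat to Mast3 (0.899).

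The same pathways hold 74 further genes in the lists used here, of which 68 were on the array and 66 were tested. On day 1 after Cd 35 of the 66 were lower and 2 higher, where 10.5% and 12.9% of all probe sets were. Their median change was -0.35 against 0.01 over all probe sets. After Cr 52 were lower and 2 higher, where 17.8% and 27.9% of all probe sets were, with a median of -0.54 against 0.04. On the later days 1 of the 66 was called, Ivd at -0.35 on day 3 after Cd (adjusted p = 0.0205), and the median change on days 3 and 7 was -0.05 and 0.01 with Cd, and 0.01 and -0.04 with Cr.

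Beside the 9 genes, the neighbours in each pathway read as follows on day 1, when 10.5% of all probe sets were lower after Cd and 17.8% after Cr. Gstz1, the isomerase between Hgd and Fah, was at -0.50 after Cd and -0.93 after Cr, both lower. In the kynurenine pathway, downstream of Tdo2, 7 of the 9 genes tested were lower after each metal, Kynu (kynureninase) the most, at -0.92 and -1.37, while Kyat1 was higher after Cd (0.40). Kmo, the kynurenine hydroxylase, was at -0.57 and -0.93. Beside Gpt and Got1, the mitochondrial Gpt2 was lower after both metals (-0.52 and -0.96) and Got2 after Cd (-0.22), and the glutaminase Gls2 was at -1.12 and -1.29.

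Of the other lists, histidine breakdown had 3 of 3 tested genes lower after both metals, Uroc1 (urocanase) at -0.84 and -1.31. In proline and ornithine breakdown 5 of 6 were lower after each metal, led by Oat (ornithine aminotransferase) at -1.28 and -1.93, and Arg1 (arginase) was lower after Cd (-0.30) and higher after Cr (0.25). In branched-chain breakdown 3 of 19 were lower and 1 higher after Cd, and 15 of 19 were lower after Cr, among them Pcca (-1.15) and Bckdhb (-1.06), subunits of propionyl-CoA carboxylase and the branched-chain keto acid dehydrogenase. In the lysine list, which holds Hykk, 2 of 5 were lower after Cd and 5 of 5 after Cr, Dhtkd1 at -0.46 and -0.91. In the serine, glycine and threonine list, which holds Sds, 8 of 14 were lower after Cd and 9 of 14 after Cr, Gnmt (glycine methyltransferase) at -0.89 and -1.25. In the cysteine list 3 of 5 were lower after each metal, with Mpst lower after Cd (-0.42) and higher after Cr (0.31). Of all probe sets 10.5% were lower and 12.9% higher after Cd, and 17.8% were lower and 27.9% higher after Cr. These lists overlap with the 9 genes, and the metals were not tested against each other for them.

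**Figure D4:**
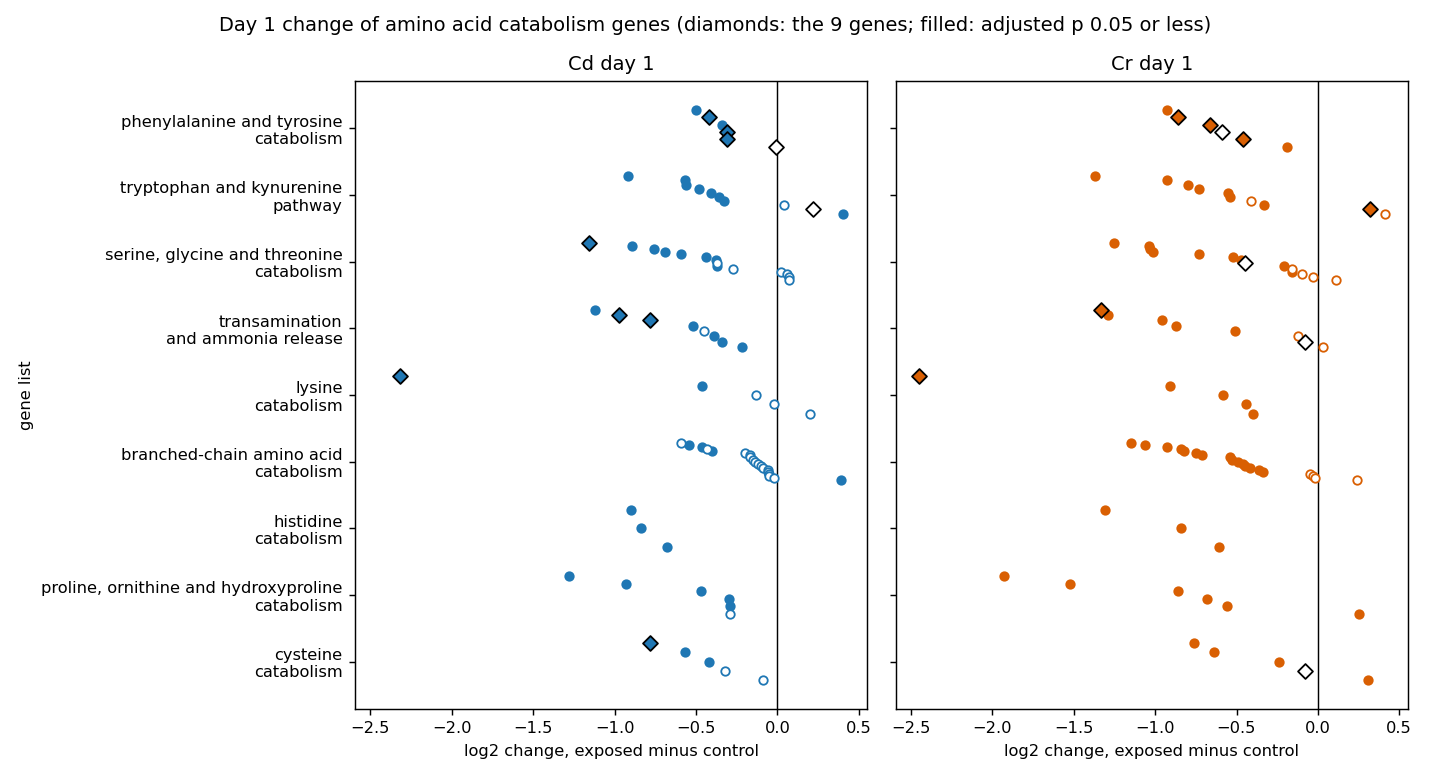
Log2 change on day 1 (exposed minus same-day control, horizontal axis) of each tested gene of 9 amino acid breakdown lists (vertical axis), for Cd (left) and Cr (right). Diamonds are the 9 member genes, circles the others, and filled symbols passed at an adjusted p of 0.05 or less. Hykk lies farthest to the left in both panels (-2.32 and -2.45), and most filled symbols lie below 0.

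Since Tat, Tdo2 and Sds are glucocorticoid targets, genes that respond to glucocorticoids were read beside them. The 11 tested include Tat and Tdo2. On day 1 after Cd, 2 of 11 were higher and 3 lower, where 12.9% and 10.5% of all probe sets were. Fkbp5, a chaperone induced by the receptor, was at 1.09 and Igfbp1, an insulin-like growth factor binding protein, at 1.84, while Dusp1 (-1.57), Sgk1 (-1.32) and the receptor Nr3c1 (-0.61) were lower. After Cr, 3 of 11 were higher, Tdo2 itself, Fkbp5 (0.46) and Klf9 (0.44), and Dusp1 (-2.46) and Nr3c1 (-0.76) were lower, shares close to the 27.9% and 17.8% of all probe sets. The median of the list was 0.06 after Cd and -0.03 after Cr. Tat is also known to follow the time of day. Of 10 tested clock genes, 2 were lower after Cd, Per2 (-1.38) and Npas2 (-0.57), beside 10.5% of all probe sets. After Cr 3 were lower, Npas2 (-1.15), Hlf (-0.86) and Cry2 (-0.31), beside 17.8%, and 1 was higher, Clock (0.20), beside 27.9%. Nothing particular to either list is read from these counts. The part of the clock or of glucocorticoids in the values of the 9 genes was not tested.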

How the data were processed

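RNA of 59 rat livers was measured on Affymetrix rat genome arrays. The authors deposited log2 values made by RMA in Partek. They were used as deposited. The table holds 31099 probe sets, of which 57 controls were left out. Genes were named from the platform annotation, where 20826 probe sets have 1 symbol, 436 several and 9780 none. The brighter 15521 of the 31042 probe sets by mean over the arrays of a fit were tested. The study's detection calls were not used here.

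limma 3.58.1 in R 4.3.3 (statmod 1.5.0) was run per metal with 6 groups, and over all 59 arrays for differences between metals. Each exposed group was set against its same-day controls, where the study pooled 3 days. P-values are two-sided and adjusted by Benjamini-Hochberg. They set a difference of means against the spread between livers within groups. limma estimates that spread over all groups of a fit and draws it towards that of the other probe sets. The number of arrays limits the precision. On simulated data with known 2-fold changes the day 1 test recovered 94% of 50 probe sets for Cd and 93.9% of 49 for Cr, and at 1.5-fold 76% of 50 and 79.6% of 49. At 1.2-fold it recovered 18.8% of 48 and 12% of 50. The simulation changed only a small share of probe sets and gave each independent normal noise. The called shares in the real day 1 livers were larger: 10.5% lower and 12.9% higher after Cd, 17.8% and 27.9% after Cr. The rates thus describe the simulated setting and not the recovery in the day 1 livers.

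The members and gene lists were chosen with earlier results of these data known. All 9 members are named. Of each amino acid list up to 3 genes with the largest called changes were to be named, and up to 4 of the glucocorticoid and clock lists. Genes named beyond these, such as Got2, Arg1, Mpst and Kyat1, were chosen after their values were seen. The alternatives tried were pooled controls, other filters, normalizations and variance estimates, array weights, a replicate block and leaving out each liver. Livers with the same replicate number were not treated as pairs in the main tests. Of 29 such pairs of exposed and control livers, 17 had deviations correlated over 0.1, with r from -0.112 to 0.281.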

Additional observations from a re-analysis of the deposited data

Results flagged for a closer look

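Of 108 combinations of gene and group, 2 held a liver far from the others, where about 1 in 20 would by chance. Sds in Cr control replicate 2 of day 1 read 5.28, with the others at 6.13 to 6.41. Hykk in Cr exposed replicate 4 of day 7 read 8.57, with the others at 7.16 to 7.52.

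The change differed by test between days for these genes. Between days 3 and 1 after Cd it differed for Hpd (0.38), Fah (0.30), Got1 (0.59) and Hykk (2.39), and between days 7 and 1 for Hpd (0.52), Fah (0.39), Got1 (0.59) and Hykk (2.42). After Cr it differed on day 3 for Hpd (0.45), Hgd (0.76), Fah (0.62), Gpt (1.67) and Hykk (2.51). On day 7 it differed for Hgd (0.71), Fah (0.65), Tdo2 (-0.49), Gpt (1.07) and Hykk (2.25).

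Between metals, Cd minus Cr, the change differed on day 1 for Hgd (0.44), Fah (0.35) and Got1 (-0.70), and on day 7 for Hpd (0.47). The cause of these differences was not tested.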

How the results depend on the processing

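No change of a called gene reversed under any alternative. With all livers kept, the counts stayed within 1.5 times, except that the 1 gene that differed between metals on day 7 became 0 with pooled controls, with no filter, with 16000 probe sets kept and with ordinary variance, which were the alternatives that ended that call. With pooled controls 7 genes were lower on day 1 after Cr, Tat and Sds being added. Tat was also lower after Cr with quantile normalization (-0.67, adjusted p = 0.0332), array weights (-0.66, adjusted p = 0.0483) and only the arrays of the comparison (adjusted p = 0.0224). Leaving out each liver gave 5 to 7 lower genes on day 1 after Cd and 5 to 6 after Cr. It gave 2 to 4 genes between days 3 and 1 after Cd, 3 to 5 between days 7 and 1, 5 between days 3 and 1 after Cr and 4 to 5 between days 7 and 1. Between metals it gave 1 to 3 genes on day 1 and 0 to 1 on day 7. For the differences between days and metals, leaving out livers was chosen after seeing the data.

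With no filter the Cd Hpd difference between days 3 and 1 (adjusted p = 0.0734), the Cr Gpt difference between days 7 and 1 (adjusted p = 0.075) and the Fah difference between metals (adjusted p = 0.0541) were lost. That Gpt difference was also lost with ordinary variance (adjusted p = 0.0666) and with trend and robust variance (adjusted p = 0.0528). Pooled controls added calls for Hgd between days 3 and 1 after Cd (0.40, adjusted p = 0.00653), Sds between days 3 and 1 after Cr (1.26, adjusted p = 0.0127), Hpd and Tat between days 7 and 1 after Cr, and Hpd between metals on day 1. Pooled controls cancel from the differences between days, so those calls compare exposed livers only. Array weights added Tdo2 between days 3 and 1 after Cr (-0.34, adjusted p = 0.0328). The fit with the replicate number as a block, set beside the unpaired main tests, gave 7 lower genes after Cd and 5 lower and 1 higher after Cr on day 1. It changed no call of the 9 genes. Of 29 exposed livers 16 matched best with the control of their own number, among 5 same-day controls each. The cause of this likeness was not tested. An alternative probe set could not be tried, since each gene has 1. The cause of these shifts was not tested.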
